A study of Mus musculus with 28 samples.

Results

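The comparison of a K-ras line with its NIH3T3 parent after 72 h in 1 mM glucose rests on 4 of the 28 arrays of the study, 2 labelled NIH3T3 and 2 labelled NIH3T3 K-ras. They were chosen by sample title, and the line profile of each was then checked with Il33, which encodes an alarmin cytokine, and Krt14, which encodes a basal keratin. NIH3T3 is an immortalised mouse embryonic fibroblast line. The line labelled NIH3T3 K-ras, called K-ras here, is given no further construct, allele, promoter or clone in the labels. Both lines were kept in medium with newborn calf serum and glutamine and were then given medium with 25 or 1 mM glucose, with cells collected at 0, 24, 48 and 72 h. Each group of line, glucose and time had 2 arrays of total RNA labelled as biological replicates, called r1 and r2. The labels do not say that these came from separate cultures, so the tests measure the spread between these arrays. The comparison asks how the lines differ late in low glucose, within a study of gene responses to glucose supply in each.

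Ras proteins are small GTPases that, when bound to GTP, switch on the RAF, MEK and ERK kinases. ERK output is kept in check by its own targets, such as the DUSP phosphatases and the Sprouty proteins, and reaches AP-1 factors such as Fosl1. Cells transformed by Ras are known for a high use of glucose and glutamine. Glucose also feeds the sugar chains of proteins that fold in the endoplasmic reticulum (ER), and a shortage is known to raise ER chaperones through the unfolded protein response.

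All values are log2 ratios to the median of the same probe set over the 28 arrays, so 1 unit is a 2-fold difference and levels of different genes cannot be compared. Signal over background is unknown. Il33 stood at -6.38 on NIH3T3 r1, -6.44 on NIH3T3 r2, -6.14 on K-ras r1 and 3.11 on K-ras r2. Krt14 stood at 2.41, 1.39, 2.22 and -3.95 on the same arrays. K-ras r1 thus carried the profile of the other line, and K-ras r2 its own. Among all arrays, 6 of 28 did so, and the 11 NIH3T3 arrays with their own profile had Il33 between -6.52 and -5.52, against 1.26 to 3.11 on the 11 such K-ras arrays.

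**Figure D1:**
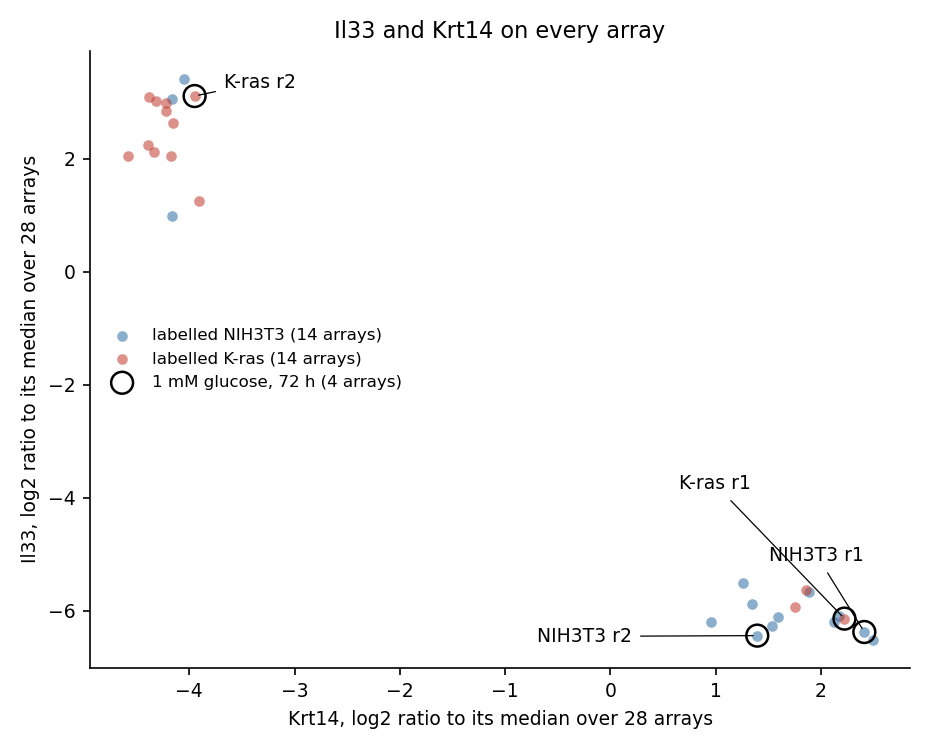
Il33 (vertical) against Krt14 (horizontal) on each of the 28 arrays, both as log2 ratios to the median over the arrays, with colour by labelled line and rings around the 4 arrays of 1 mM glucose and 72 h. K-ras r1, at -6.14 for Il33 and 2.22 for Krt14, lies among arrays labelled NIH3T3, and K-ras r2, at 3.11 and -3.95, lies among arrays labelled K-ras.

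K-ras r1 also stood apart in RNA quality. The control probe sets at the 5′ end minus those at the 3′ end gave -1.40 for beta-actin and -2.09 for Gapdh on K-ras r1, the lowest of the 28 arrays. The 24 arrays outside this comparison ranged from -0.65 to 0.60 for beta-actin and from -0.43 to 0.33 for Gapdh, and the other 3 arrays lay between -0.41 and 0.23. Over all genes the array correlated at 0.65 with an NIH3T3 array at 25 mM and 48 h, its nearest, and at -0.12 with K-ras r2. K-ras r2 was nearest, at 0.85, to an array labelled NIH3T3 at 1 mM and 24 h that has the K-ras profile. The NIH3T3 arrays correlated at only 0.28 with each other. The spike-in control bioC was at -1.01 on NIH3T3 r2 and between 0.10 and 0.80 on the other 3, and low values of it, under -0.6, occurred on 12 arrays, all labelled NIH3T3.

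The comparisons are therefore given from 2 fits. The 28-array fit takes every label as it stands. Its pooled spread takes in groups that hold arrays of both profiles, which widens the SE of genes that follow the profile. In Crabp1, for example, the difference in this fit was 3.30 with an SE of 2.79. Such genes could hardly be called in it, so 0 calls there do not show a lack of difference. The 22-array fit leaves out the 6 arrays with the other line's profile, so K-ras is then K-ras r2 alone and is assumed to vary like the other groups. Since Il33 and Krt14 chose the arrays of the second fit, their own differences in it are not results. Both fits used limma over 18193 genes with Benjamini-Hochberg adjustment, and a gene was called at an adjusted p under 0.05.

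With the labels as given, 46 genes were called, 0.253% of those tested, of which 10 were higher in K-ras (0.055%) and 36 lower (0.198%). An unadjusted p under 0.05 was found for 2295 genes (12.6%), and the median over all genes was -0.04. The largest fall was in Gas7, a growth-arrest gene whose protein organises membranes and actin. It stood at 2.06 and 1.91 on the NIH3T3 arrays and at -4.91 and -3.12 on K-ras r1 and r2, a difference of -6.00 (SE 0.81, adjusted p = 0.00686). Hk1, a hexokinase that starts glycolysis, stood at 1.32 and 0.76 against -0.99 and -2.09, a difference of -2.58 (SE 0.51, adjusted p = 0.0419). Rarg, a retinoic acid receptor, stood at 0.63 and 0.33 against -2.14 and -2.19, a difference of -2.65 (SE 0.36, adjusted p = 0.00686). In all 3 genes both K-ras arrays lay below both NIH3T3 arrays.

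Other genes called lower with all labels kept were Klc1, a kinesin light chain, at -2.77, Slco2a1, a prostaglandin transporter, at -2.72, and Wasf2, which activates the Arp2/3 actin nucleator, at -2.52. Cyb5r3, a reductase of lipid metabolism, fell by 2.22, Fads2, a fatty acid desaturase, by 2.09, Ehmt2, a histone H3 methyltransferase, by 1.95, and Trim8, a ubiquitin ligase, by 1.92. Atp5d, a subunit of the mitochondrial ATP synthase, fell by 1.21 (SE 0.20, adjusted p = 0.0348). The 39 lists examined have 894 measured entries. Their called members were Hk1, Atp5d, Fads2 and Rarg, 1 each in glycolysis, respiratory complexes III to V, fatty acid metabolism and retinoid handling. No member of a list was called higher. Of all genes 0.198% were called lower and 0.055% higher. In bulk RNA, fewer cells that express a gene and less RNA of it per cell cannot be told apart.

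The largest rise was in Slc25a5, a carrier that exchanges ADP and ATP across the inner mitochondrial membrane. It stood at -3.54 and -2.53 on the NIH3T3 arrays and at -0.08 and 0.08 on K-ras r1 and r2, a difference of 3.04 (SE 0.60, adjusted p = 0.0407). Caap1, an apoptosis inhibitor, was higher by 2.20, Paip1, which binds the poly(A)-binding protein in translation, by 2.19, and Tnks2, a poly-ADP-ribosylating enzyme, by 1.99. Also called higher were Ola1 at 1.79, Agfg1 at 1.70, Mrpl13 of the mitochondrial ribosome at 1.52, Sgms2, a sphingomyelin synthase, at 1.52, Zik1 at 1.38 and Rexo4 at 1.30. The 2 groups of arrays did not overlap in any of the 46 called genes, and they did not overlap in 34.6% of all genes.

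**Figure D2:**
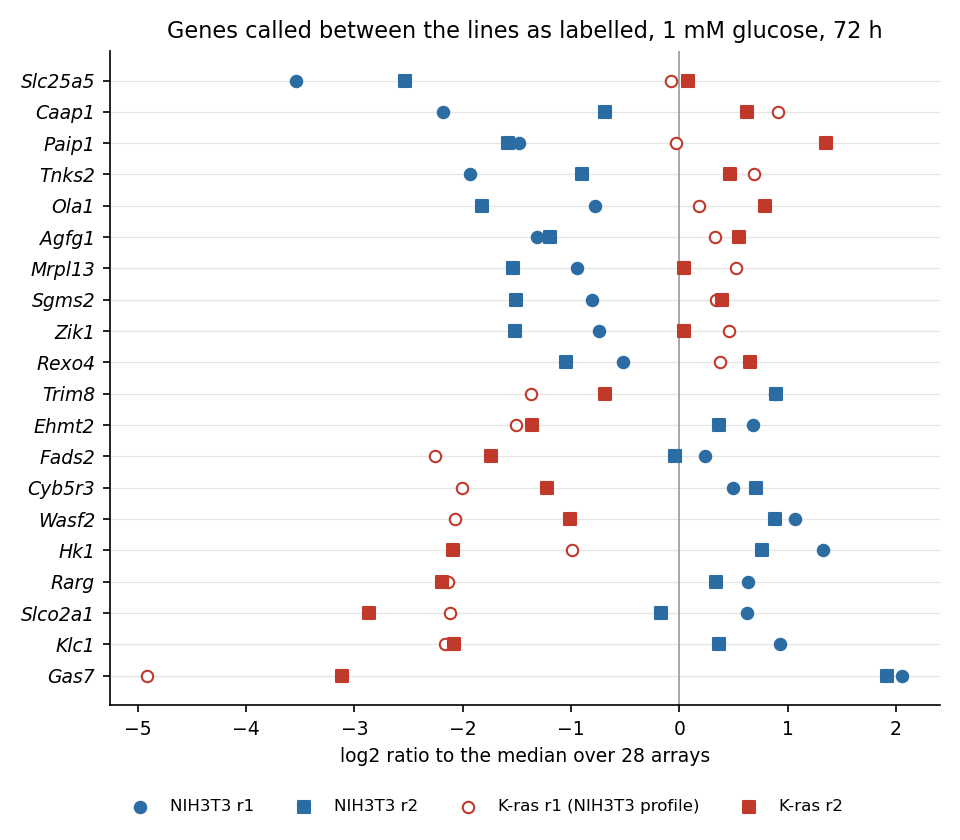
Log2 ratio to the median over 28 arrays (horizontal) on each of the 4 arrays for the 10 genes called higher and the 10 with the largest fall with all labels kept (rows); blue is NIH3T3, red is K-ras, circles are r1 and squares r2, and the open circle is K-ras r1. Both red points lie on the same side of both blue points in all 20 genes, with Gas7 at -4.91 and -3.12 in K-ras.

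Without K-ras r1, in the 22-array fit, Gas7 differed by -5.10 and Slc25a5 by 3.12. That fit shares K-ras r2 and both NIH3T3 arrays with the 28-array fit, so likeness between the fits was in part fixed beforehand. K-ras r1 was the more extreme of the K-ras arrays in 27 of the 46 genes. The fit without K-ras r1 but with the other 5 opposite arrays called 286 genes, the fit without K-ras r2 called 132, and those without NIH3T3 r1 or r2 called 24 and 28. Probe sets of the same gene often disagreed. Of the 34 genes with several probe sets, 26 had one whose difference was of the opposite sign or under 25% of the value given, Gas7 (to 0.02), Klc1 (to 0.24), Hk1 (to -0.46) and Slc25a5 (to 0.20) among them. The part of probe position and of the 5′ to 3′ differences in these calls was not tested. After scaling the arrays to one interquartile range 1 gene was called, higher in K-ras, and after quantile normalisation 2 were, 1 in each direction.

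The genes whose 2 groups lay farthest apart included, besides those named, several that no adjusted test called. Pdk1, the kinase that closes the entry of pyruvate into the TCA cycle, stood at -2.94 and -1.45 in NIH3T3 and at -0.01 and 1.15 in K-ras (adjusted p = 0.184). Nhsl2 stood at 2.92 and 2.51 against 0.10 and -0.80, and Csrp1, an actin-linked LIM protein, at 0.80 and 1.31 against -1.48 and -1.78 (adjusted p = 0.056). Nfix, a transcription factor of quiescent and differentiating cells, stood at 0.91 and 1.08 against -1.35 and -1.80 (adjusted p = 0.0513). Myo1c and Msrb3 were lower in both K-ras arrays as well, and Sdc4, Ninl, Prpf4b and Zfp982 higher. None of the 6 was called with the labels as given.

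In the 22-array fit 1471 genes were called, 8.09% of those tested, with 623 higher in K-ras r2 (3.42%) and 848 lower (4.66%), and 1384 of them differed by at least 2-fold. An unadjusted p under 0.05 was found for 3668 genes (20.2%). The count was 879 with arrays scaled to one interquartile range and 828 after quantile normalisation. A limma fit on the 3 remaining arrays alone called 0, with 2162 at an unadjusted p under 0.05.

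The largest rise after Il33 was in Crabp1, a retinoic acid binding protein. It stood at -5.78 and -5.60 on the NIH3T3 arrays, at -5.77 on K-ras r1 and at 0.98 on K-ras r2, a difference of 6.67 (SE 0.27, adjusted p = 2.5e-08). Nrcam, a neuronal adhesion molecule, stood at -3.12, -3.53, -2.86 and 2.51, a difference of 5.83 (SE 0.47, adjusted p = 1.08e-05). Map2, a microtubule protein of dendrites, was higher by 5.41 and Slit2, an axon guidance ligand, by 4.96. In all 4 genes K-ras r1 lay close to the NIH3T3 arrays. Alcam, an adhesion molecule, was higher by 4.88, Ngef, a guanine nucleotide exchange factor, by 4.71, Hs6st2, a heparan sulfate sulfotransferase, by 4.85, Slc40a1, the iron exporter ferroportin, by 4.49, and P2rx3, an ATP-gated channel, by 4.40. Defb41, Fam110c and Ccbe1 differed by 4.67, 4.54 and 4.42.

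The largest fall was in Slurp1, a secreted protein of the Ly6 family. It stood at 3.45 and 4.04 on the NIH3T3 arrays, 3.80 on K-ras r1 and -3.07 on K-ras r2, a difference of -6.82 (SE 0.52, adjusted p = 6.92e-06). Lgals9, a galectin, stood at 1.63, 1.48, 0.74 and -4.88, a difference of -6.44 (SE 0.41, adjusted p = 1.81e-06). Pdgfrl differed by -5.62, Anxa8, an annexin, by -5.29, and S100a13 by -5.29. Klf2, a factor of quiescent cells, stood at 1.92 and 1.24 on the NIH3T3 arrays, 1.80 on K-ras r1 and -3.42 on K-ras r2. Dlc1, a tumour suppressor, differed by -4.89, Serpinb1a, an inhibitor of proteases, by -4.78, and Ctla2a and Ctla2b, inhibitors of cathepsins, by -5.06 and -4.85. None of these was called with the labels as given, where adjusted p ranged from 0.357 for Lgals9 to 0.798 for Ctla2a, and of the 30 largest differences only Gas7 was. Of 17 such genes with several probe sets, 8 had one that was opposite or under 25%, among them Nrcam, Map2, Hs6st2 and Dlc1.

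List counts here and below are to be read beside the shares of all genes. In the 22-array fit these were 3.42% higher and 4.66% lower. At an unadjusted p under 0.05 by limma they were 12.6% with the labels as given and 20.2% in the 22-array fit. ER chaperones and other genes of the unfolded protein response were higher on K-ras r2. In the 22-array fit 11 of 27 measured members were called higher and 0 lower, with a list median of 1.45 beside -0.06 over all genes. With the labels as given limma called 0 of 27, with 3 at an unadjusted p under 0.05, and the median was 0.43. The median over the list was 0.24 on NIH3T3 r1, 0.37 on NIH3T3 r2, -0.06 on K-ras r1 and 1.64 on K-ras r2. It was 1.60 on the array labelled NIH3T3 at 1 mM and 24 h that has the K-ras profile. Only K-ras r2 stood high among the 4.

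Ero1b, which reoxidises the enzymes that form disulfide bonds, stood at -0.12, -0.17, 0.46 and 3.03 on NIH3T3 r1, NIH3T3 r2, K-ras r1 and K-ras r2, a difference of 3.18 (SE 0.39, adjusted p = 0.000295). Dnajb9, a co-chaperone of degradation, stood at -1.28, 0.48, -0.30 and 2.76, a difference of 3.15 (SE 0.59, adjusted p = 0.00486). Creld2, an ER protein of the stress response, stood at 0.24, 0.37, 0.21 and 2.77, a difference of 2.47 (SE 0.30, adjusted p = 0.000304). The high array was the same in each, and K-ras r1 lay at or near the NIH3T3 arrays. Pdia4, a disulfide isomerase, was higher by 2.46 and Manf, a secreted ER stress protein, by 2.23. Sdf2l1, Hsp90b1, Canx, Hyou1, Pdia3 and Dnajb11 were higher by 1.32 to 1.96. Another probe set of Pdia4 differed by -0.15.

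Hspa5, the master ER chaperone BiP, stood at -0.66, 1.41, -0.27 and 2.31 and did not pass (difference 1.94, SE 0.60, adjusted p = 0.0692). The NIH3T3 arrays lay far apart in it, as they did in Ero1a, at -0.30 and 2.62, and Herpud1, at 0.66 and 2.52. NIH3T3 r2 thus had part of the list high as well.

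The promoters of several of these genes hold the ER stress response element (ERSE), made of CCAAT and CCACG with 9 bases between them. It was sought on both strands in the 250 bases before the start in the RefSeq table of GRCm38.p6. It was found in 9 of 23 list members with a promoter in the table, in 4 of the 9 called members and in 5 of the 14 others, and in 0.13% of all 27025 genes. The stretches below show it, in capitals, in 3 called genes and in Hspa5, as CCAAT first where it runs with the gene and as CGTGG first where it runs against it. Each is read 5′ to 3′ on the gene's own strand. The Ero1b stretch is chr13:12565652-12565730 (plus strand), Creld2 chr15:88819490-88819568 (plus), Canx chr11:50325770-50325848 (minus) and Hspa5 chr2:34771995-34772073 (plus).
Ero1b: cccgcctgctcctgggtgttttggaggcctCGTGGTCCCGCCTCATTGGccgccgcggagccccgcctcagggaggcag
Creld2: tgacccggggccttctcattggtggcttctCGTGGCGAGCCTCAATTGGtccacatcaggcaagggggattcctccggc
Canx: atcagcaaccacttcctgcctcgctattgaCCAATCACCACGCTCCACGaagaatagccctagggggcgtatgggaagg
Hspa5: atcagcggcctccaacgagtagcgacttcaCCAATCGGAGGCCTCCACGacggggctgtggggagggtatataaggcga
The match is of letters only and shows no binding.

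Cholesterol synthesis moved the other way. Of 20 measured members 10 were lower in K-ras r2 and 0 higher in the 22-array fit, with a median of -1.38. Limma called 0 with all labels kept, with 7 at an unadjusted p under 0.05, and the median was -0.76. Cyp51, which demethylates lanosterol, stood at 1.10, 1.17, 0.96 and -2.23 on NIH3T3 r1, NIH3T3 r2, K-ras r1 and K-ras r2, a difference of -3.37 (SE 0.23, adjusted p = 2.5e-06). Dhcr7, of the last step of the pathway, stood at 0.21, 0.25, 0.39 and -2.41, a difference of -2.64 (SE 0.42, adjusted p = 0.0017). Pmvk and Mvd, of the mevalonate steps, fell by 2.31 and 2.09. Srebf2, the factor that drives the pathway, fell by 1.51 (SE 0.34, adjusted p = 0.0144), and Mvk, Nsdhl, Fdps, Fdft1 and Sqle fell by 1.10 to 1.98. In Fdps and Srebf2, K-ras r1 also lay below both NIH3T3 arrays, at -0.73 and -0.47, as it did in Nsdhl and Fdft1.

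Among genes of fatty acid metabolism 5 of 25 fell and 0 rose in the 22-array fit, and with all labels kept Fads2 alone fell. Cpt1a, which admits fatty acids to mitochondria, fell by 1.89, Fads2 by 1.83, Acadvl, of fatty acid oxidation, by 1.58, and Acly, which makes cytosolic acetyl-CoA, by 1.31. Both synthesis and oxidation were thus represented. The sterol element TCACNCCAC was found in 1 of 16 cholesterol genes, against 1.22% of all genes. That gene was Hmgcs1, and the element was not found in Cyp51, Dhcr7, Pmvk, Mvd or Srebf2.

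**Figure D3:**
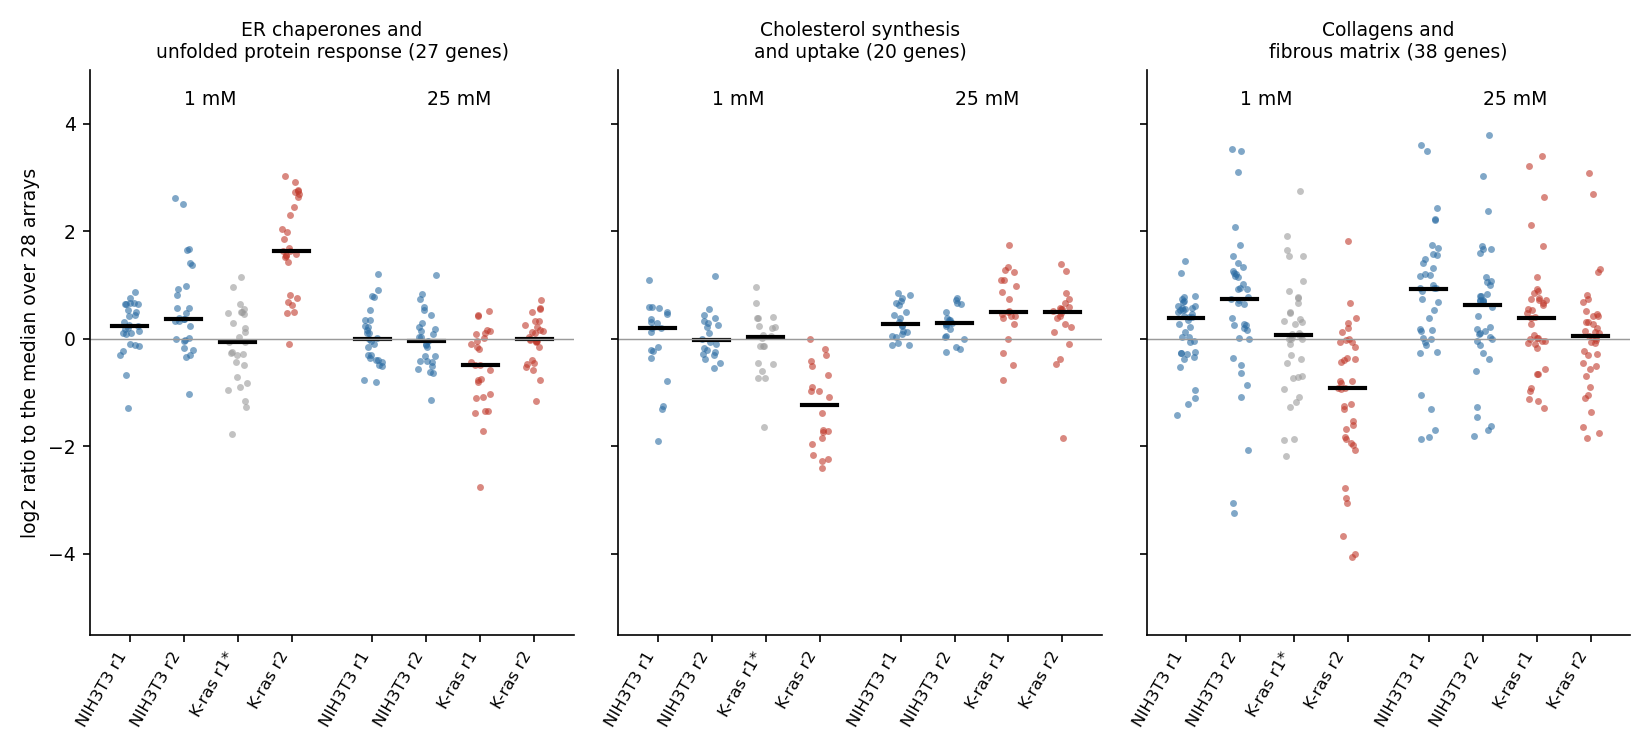
Log2 ratio to the median over 28 arrays (vertical) of every measured member (points) of 3 lists on the 8 arrays of 72 h, with the list median as a black bar; the array marked with an asterisk and drawn in grey is K-ras r1 of 1 mM, which has the NIH3T3 profile. K-ras r2 at 1 mM has medians of 1.64, -1.23 and -0.91 in the 3 panels, apart from the other 7 arrays.

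Collagens and other fibrous matrix genes were lower on K-ras r2. In the 22-array fit 14 of 38 were called lower and 2 higher, with a median of -1.68. From the 28 arrays limma called 0, with 12 at an unadjusted p under 0.05 (median -0.78). Col1a1, the main chain of type I collagen, stood at 0.42, 1.02, 0.34 and -4.00 on NIH3T3 r1, NIH3T3 r2, K-ras r1 and K-ras r2, a difference of -4.71 (SE 0.43, adjusted p = 3.77e-05). Col6a1 and Col6a2, chains of microfibrillar type VI collagen, differed by -4.60 and -4.83, and Col11a1 by -4.79. In Col6a2 the array values were 0.61, 0.94, 0.78 and -4.06. K-ras r2 was the single low array in each of the 4 genes. The members called higher were Thbs2, an antiangiogenic thrombospondin, by 2.81 and Tnc, the adhesion-modulating tenascin C, by 2.03. Fn1, fibronectin, stood at -0.94 and 3.10 in NIH3T3 and at -2.18 and 1.82 in K-ras, so the arrays of the lines overlapped. Lum, a collagen-binding proteoglycan, stood between -0.16 and 0.08 on all 4.

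Of 21 matrix proteases and inhibitors, 7 fell and 1 rose in the 22-array fit, with a median of -0.81. With all labels kept limma called 0, with 5 at an unadjusted p under 0.05. Mmp2, which cleaves type IV collagen, fell by 3.47, and Timp3, an inhibitor of such enzymes, by 3.80. Serpinb2, an inhibitor of plasminogen activators, rose by 3.53 (SE 0.58, adjusted p = 0.0021). Prelp, a matrix proteoglycan, fell by 4.80 and was the only member of 11 in its family to be called.

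Genes known as readouts and brakes of ERK were higher on K-ras r2. In the 22-array fit 6 of 29 were called higher and 0 lower, with a median of 0.68. With the labels as given limma called 0, with 3 at an unadjusted p under 0.05 beside 12.6% of all genes (list median 0.14). Dusp4, an ERK phosphatase, stood at -0.65, -0.45, -0.79 and 1.78 on NIH3T3 r1, NIH3T3 r2, K-ras r1 and K-ras r2, a difference of 2.33 (SE 0.25, adjusted p = 0.000105). Spry4, a Sprouty inhibitor of the pathway, stood at -0.89, -0.62, -0.51 and 1.40, a difference of 2.15 (SE 0.34, adjusted p = 0.00159). Fosl1, which encodes the AP-1 factor Fra-1, stood at -1.53, -1.71, -1.90 and -0.24, a difference of 1.37 (SE 0.29, adjusted p = 0.0108). K-ras r1 lay with the NIH3T3 arrays in all 3. Ereg, an EGF receptor ligand, rose by 2.58, and Spry2 and Phlda1 by 1.78 and 1.75.

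Dusp6, the cytosolic ERK phosphatase, differed by 0.81 (SE 0.25, adjusted p = 0.0679) and Etv4, an ERK-driven ETS factor, by 0.96 (adjusted p = 0.196), and neither was called. Myc differed by 1.11 and Ccnd1 by 1.05, with adjusted p = 0.291 and 0.733. In Ccnd1, cyclin D1, the arrays of each line were far apart: NIH3T3 at -0.19 and -2.28, K-ras at -2.22 and -0.18. Nras, a Ras gene of the same family, stood at 0.55, -0.43, 0.40 and -0.27 and was not called.

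Several chemokine genes were lower on K-ras r2. Of 36 cytokine, chemokine and prostaglandin genes, 8 fell and 2 rose in the 22-array fit, leaving aside Il33, which helped to choose its arrays. The median over the 36, Il33 included, was -0.30. Kept labels gave 0 calls by limma, with 4 at an unadjusted p under 0.05 beside 12.6% of all genes. Cxcl1, a neutrophil attractant, stood at -0.18, 0.60, -1.66 and -3.77 on NIH3T3 r1, NIH3T3 r2, K-ras r1 and K-ras r2, a difference of -3.98 (SE 0.52, adjusted p = 0.000464). Cxcl5, of the same receptor, fell by 3.84 from -0.73 and -1.35 to -4.88. Ccl2, a monocyte attractant, stood at -0.22, 0.10, -1.55 and -1.87, a difference of -1.80 (SE 0.38, adjusted p = 0.0105). In Cxcl1 and Ccl2 both K-ras arrays were below both NIH3T3 arrays. Ccl7 and Ccl9 fell by 2.09 and 2.85, and the 2 rises were in Il11, by 1.89, and Pla2g4a, which frees arachidonic acid for prostaglandins, by 1.28. The AP-1 letters TGANTCA were found in 8 of 28 promoters of the list, against 7.82% of all genes. They were found in Ccl9 and Il11 and not in Cxcl1 or Pla2g4a, and Cxcl5, Ccl2 and Ccl7 were not among the 28.

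Central carbon genes differed in both directions. In the 22-array fit the median over 24 glycolysis and lactate genes was 0.65, with 15 positive, beside -0.06 over all genes. With the labels as given the median was 0.26, and Hk1 alone was called. Eno2, the neuronal enolase, stood at -1.78, -0.88, -1.25 and 3.03 on NIH3T3 r1, NIH3T3 r2, K-ras r1 and K-ras r2, a rise of 4.36 (SE 0.51, adjusted p = 0.000196), and Pdk1 rose by 3.35 (adjusted p = 0.0068). Hk1 fell by 3.13, Pfkfb4, which sets a glycolytic activator, by 2.10 and Pfkm, muscle phosphofructokinase, by 0.98. The lactate transporter Slc16a1 rose by 1.03. Hk2, the inducible hexokinase, stood at -0.75 and 1.09 in NIH3T3 and at -0.78 and 1.37 in K-ras. Slc2a1, the main glucose transporter, differed by 1.12 (adjusted p = 0.221) and Ldha by 0.68 (adjusted p = 0.407). In Hk2 both r1 arrays were low and both r2 arrays high.

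Of 28 genes of the TCA cycle and pyruvate entry, 4 fell and 1 rose in the 22-array fit, where 4.66% of all genes fell and 3.42% rose. With all labels kept limma called 0, with 9 at an unadjusted p under 0.05. Ogdh, Pdha1, Sdha and Cs fell by 1.00 to 1.65, and Sucla2, a succinyl-CoA ligase subunit, rose by 3.03. Other probe sets of Sucla2 ranged to -0.28. None of 34 complex I genes was called by limma in the 22-array fit, where 5 had an unadjusted p under 0.05. Of the complexes III to V, 3 of 32 rose and 2 fell, beside the same shares of all genes, and with all labels kept Atp5d alone fell. Txnip, a brake on glucose uptake that follows glucose supply, stood at 1.31, -1.22, -0.20 and -2.49 (difference -2.54, SE 1.06, adjusted p = 0.189). Its relative Arrdc4 differed by -0.83 (adjusted p = 0.447).

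Genes of the integrated stress response, which slows translation when amino acids or folding fail, were high on some arrays of either label. Ddit3, the factor CHOP, stood at -0.10 and 4.17 on the NIH3T3 arrays and at 0.43 and 4.01 on the K-ras arrays. Trib3, a CHOP target, stood at -0.49, 2.69, 0.86 and 3.04. NIH3T3 r2 and K-ras r2 were high and both r1 arrays low. The list median was -0.06, 1.23, 0.15 and 0.95, and the median difference in the 22-array fit was 0.44, with 23 of 30 members above 0. In that fit 1 member was called, the cystine transporter Slc7a11 (rise of 2.47, adjusted p = 0.0244). Asns, asparagine synthetase, lay between -0.02 and 0.62 on the 4 arrays.

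Proliferation genes split the arrays the same way. The median of 46 DNA replication genes was 0.37 on NIH3T3 r1, -2.26 on NIH3T3 r2, -0.18 on K-ras r1 and -0.78 on K-ras r2. That of 38 mitosis genes was 0.19, -2.90, -0.23 and -2.22. Limma called 0 genes of either list between the lines in either fit, and in the 22-array fit 1 replication and 4 mitosis genes had an unadjusted p under 0.05. The arrays labelled NIH3T3 thus differed from each other by over 2 units in both lists. Cdkn1a, the p21 inhibitor of CDKs, stood at 0.62, 0.97, 0.10 and -0.40 (adjusted p = 0.106 in the 22-array fit). Among 20 G1 regulators Ccnd3, Cdk6 and Cdkn2c fell by 1.89, 2.09 and 2.58 in that fit, and limma called 0 with all labels kept, with 3 at an unadjusted p under 0.05.

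Antioxidant genes of the NRF2 pathway had 5 of 26 members called higher and 0 lower in the 22-array fit. With all labels kept limma called 0, with 7 at an unadjusted p under 0.05. Gclm, of glutathione synthesis, stood at -0.87, -1.54, 0.01 and 2.10, a rise of 3.31 (SE 0.35, adjusted p = 0.000111), and its partner Gclc rose by 1.84. Gsta4, a glutathione transferase, rose by 3.63, Srxn1, sulfiredoxin, by 1.70 and Me1 by 0.86. The list median was only 0.22, and it was -0.06 without NIH3T3 r2. Interferon-response and antigen presentation genes had 6 of 33 called lower and 0 higher in the 22-array fit, and 0 with all labels kept, where 5 had an unadjusted p under 0.05 by limma. Irgm1, an interferon-induced GTPase, fell by 2.09, Tapbp, a peptide loading factor, by 2.08 and Ifit3 and H2-K1 by 1.67 and 1.63.

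Genes of the retinoid list did not share a direction: Crabp1 rose, and Aldh1a1 and Aldh1a7, of the aldehyde dehydrogenase family, fell by 4.74 and 4.71, with Rarg also down. Of 28 semaphorin, plexin and neuropilin genes 3 rose and 3 fell. Sema7a, a membrane-anchored semaphorin, rose by 2.98 and Sema6d by 2.49, and the secreted Sema3f and Sema3c fell by 3.77 and 2.86. Ctsk, cathepsin K, which digests collagen, rose by 4.28, and Vcl, vinculin of focal adhesions, fell by 3.04. With the labels as given, Rarg alone of these was called.

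Markers of the labelled cell type were partly lower on K-ras r2. Of 12 fibroblast markers 3 fell, Col1a1, Thy1 and S100a4, by 4.71, 1.94 and 1.24, and 0 rose. The median of the list was -0.84, with 1 of 12 genes above 0, and its median on K-ras r2 was -1.08 against 0.01 to 0.17 on the other 3 arrays. With all labels kept limma called 0, with 2 at an unadjusted p under 0.05. Vim, an intermediate filament of fibroblasts, lay between -0.98 and -0.12 on the 4 arrays. For markers of other cell types the list medians in the 22-array fit were -0.05 for 11 leukocyte genes, -0.28 for 12 epithelial, 0.12 for 10 endothelial, -0.10 for 7 fat cell and -0.05 for 10 skeletal muscle genes. Cd14 and Lyz2 fell and Krt8 and Robo4 rose. Krt14, which helped to choose the arrays, is not named among these genes. It is 1 of the 12 epithelial genes and is included in their list medians. The range of these list medians over the 4 arrays was -0.11 to 0.22. Ratios to a median cannot show whether a marker is absent, and the part of other cells in the results was not tested.

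At 25 mM glucose and 72 h the same lines were compared on 4 other arrays, all with their own profile. The 22-array fit called 1618 genes there, 8.89%, and the 28-array fit 132, 0.726%. The 22-array count was 4257 without K-ras r2 of 25 mM, 1054 without its r1, and 620 and 659 without NIH3T3 r1 and r2 of 25 mM. It was 414 on the compared arrays only and 300 with a block for bioC under -0.6. At 25 mM and 72 h bioC was -2.12 and -1.27 on the NIH3T3 arrays and 2.94 and -0.14 on the K-ras arrays, so line and block coincided there. Of the 1618 genes 630 were higher (3.46%) and 988 lower (5.43%), a split of 596 and 578 after quantile normalisation. K-ras r1 of 25 mM had the widest interquartile range of values of the 28 arrays, 0.777 against 0.29 to 0.525 on the others, and the part of this spread in the comparisons was not tested. Between glucose levels, 620 genes were called at both in the 22-array fit, 42.1% of the 1 mM genes and 38.3% of the 25 mM genes, and 614 of them in the same direction. Of the 1471 genes called at 1 mM, 84.0% had the same sign at 25 mM, against 56.4% of all genes. Across genes the 2 line differences correlated at 0.48, a description only, since genes are not independent and share the array design. Crabp1, Nrcam, Slurp1, Anxa8, Klf2 and Aldh1a1 were called at both levels.

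**Figure D4:**
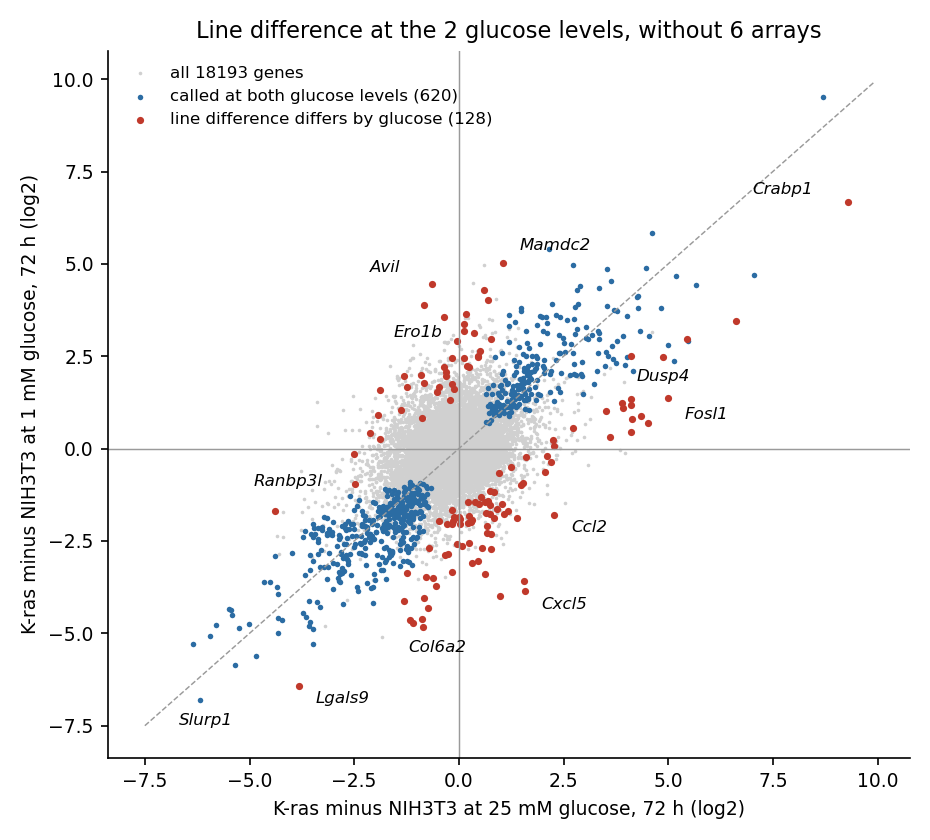
Line difference (K-ras minus NIH3T3, log2) at 1 mM (vertical) against 25 mM glucose (horizontal) at 72 h for all 18193 genes in the 22-array fit, with blue for the 620 called at both levels, red for the 128 whose line difference differed by glucose, and a dashed line of equal values. Crabp1, at 6.67 and 9.30, lies on both axes' high side, while Avil, at 4.45 and -0.63, is high at 1 mM alone.

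The difference of the line differences, 1 mM minus 25 mM, was called in 0 genes (0.0%) with the labels as given, where limma gave 2220 an unadjusted p under 0.05, and in 128 (0.704%) in the 22-array fit, 40 positive and 88 negative. A positive value says that K-ras relative to NIH3T3 was higher at 1 mM than at 25 mM, whatever the size of either line difference. The list counts below are to be read beside the shares of all genes in the 22-array fit. At 25 mM these were 3.46% higher and 5.43% lower. For the difference between glucose levels they were 0.22% positive and 0.484% negative. The 22-array count ranged from 42 without NIH3T3 r2 of 25 mM to 1677 without K-ras r2 of 25 mM, with 52 and 480 without NIH3T3 r1 and r2 of 1 mM and 56 without NIH3T3 r1 of 25 mM. It was 41 after quantile normalisation. Scaling to one interquartile range left 16, of which 10 were positive and 6 negative.

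ERK output genes had 12 of 29 called higher at 25 mM, beside 6 at 1 mM, and 1 whose difference by glucose was called. Fosl1 stood at -4.79 and -4.50 on the NIH3T3 arrays of 25 mM and at 0.30 and 0.39 on the K-ras arrays, a line difference of 4.99 beside 1.37 at 1 mM. The difference between the levels was -3.62 (SE 0.38, adjusted p = 0.00185). The NIH3T3 arrays were thus lower at 25 mM than at 1 mM, and K-ras r2 of 1 mM, at -0.24, was lower than the K-ras arrays of 25 mM. Dusp4 differed by 3.76 at 25 mM and 2.33 at 1 mM (adjusted p of the difference 0.0711). Ranbp3l, which encodes a Ran-binding protein of nuclear export, stood at 4.51 and 4.42 in NIH3T3 at 25 mM against 1.84 and 1.76 at 1 mM, and its line difference was -4.40 at 25 mM and -1.70 at 1 mM (adjusted p of the difference 0.00207).

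Of the 36 cytokine, chemokine and prostaglandin genes, 5 had a called difference by glucose, all negative: Cxcl5, Cxcl1, Ccl2, Ccl7 and Ptgis, the prostacyclin synthase. Ccl2 stood at -0.10 and 0.29 in NIH3T3 and at 1.97 and 2.77 in K-ras at 25 mM, so K-ras was higher by 2.28 there and lower by 1.80 at 1 mM (difference -4.08, SE 0.49, adjusted p = 0.00241). Cxcl1 stood at -0.94 and -1.06 against -0.14 and 0.11, a line difference of 0.98 that was not called, beside -3.98 at 1 mM (difference -4.97, adjusted p = 0.00507). Only in Ccl2 of these 2 genes was the line difference called at both levels, with opposite signs.

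Collagens and fibrous matrix genes had 6 of 38 members with a called difference by glucose, all negative. Col6a2 stood at 1.19 and 1.09 in NIH3T3 and at 0.41 and 0.15 in K-ras at 25 mM, a line difference of -0.86 beside -4.83 at 1 mM (difference -3.98, SE 0.44, adjusted p = 0.00207). Col1a1 and Col6a1 had differences of -3.61 and -3.71. Cholesterol genes had 6 of 20 with a called and negative difference, among them Pmvk at -3.09, Dhcr7 at -2.71 and Cyp51 at -2.13, and ER genes had 4 of 27, all positive. For Col6a2, Col1a1, Dhcr7 and Cyp51 this meant a line difference farther from 0 at 1 mM. At 25 mM the ER list had 1 member higher and 2 lower with a median of -0.17, and the cholesterol list 1 lower with a median of 0.22. Ero1b stood at -0.80 and -0.50 in NIH3T3 and at -1.08 and 0.04 in K-ras at 25 mM (difference between levels 3.05, SE 0.50, adjusted p = 0.0162). After quantile normalisation limma called 0 ER and 0 cholesterol genes for this difference, with 15 and 11 at an unadjusted p under 0.05, and 4 collagen genes. Without NIH3T3 r1 of 1 mM the counts were 0 for ER, 1 for cholesterol and 3 for collagen genes.

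**Figure D5:**
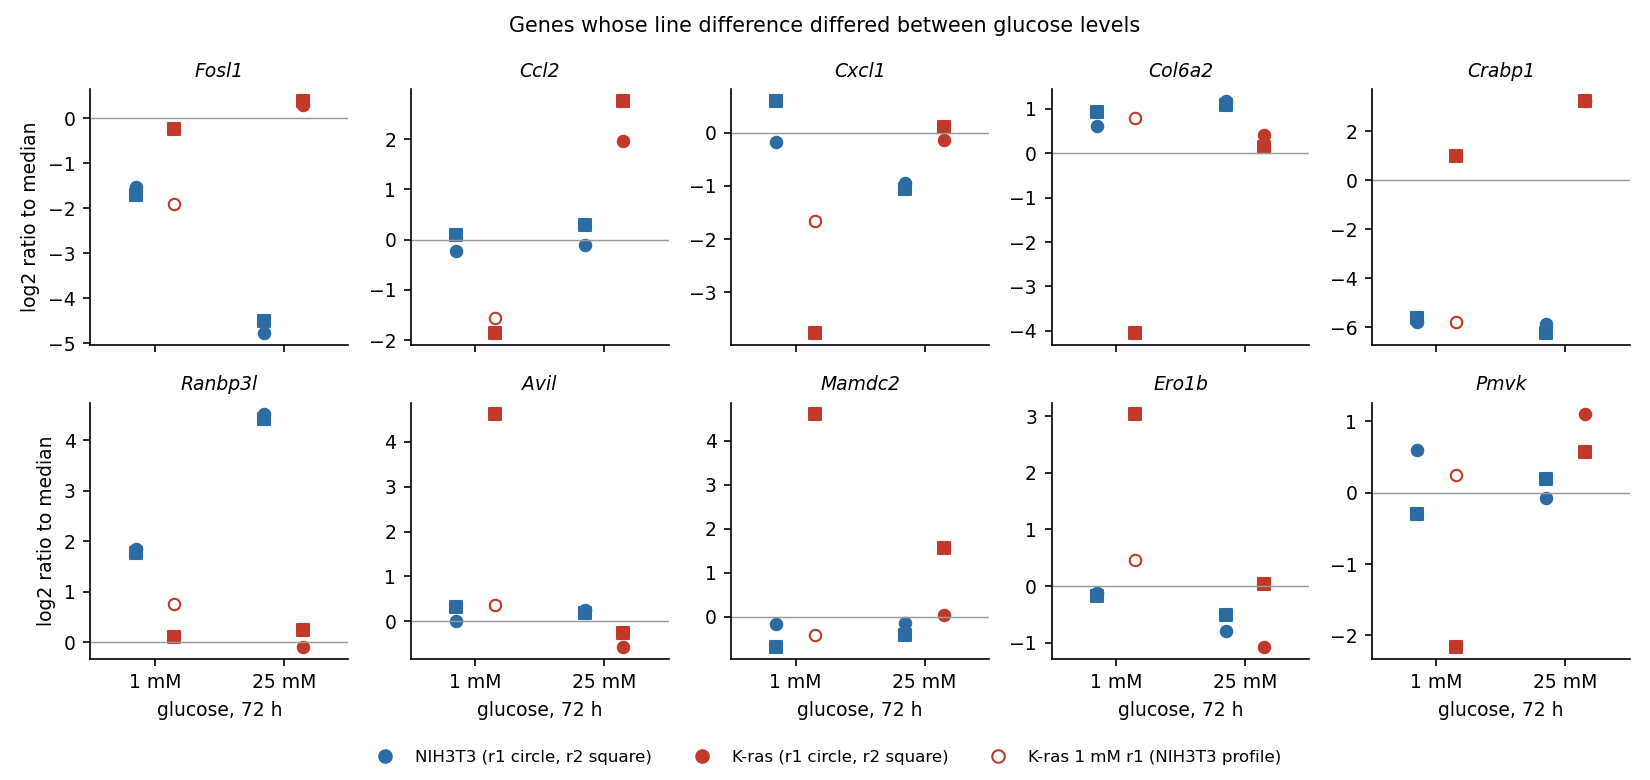
Log2 ratio to the median over 28 arrays (vertical, own scale in each panel) of 10 genes at 1 and 25 mM glucose and 72 h, with blue for NIH3T3, red for K-ras, circles for r1, squares for r2 and an open circle for K-ras r1 of 1 mM. Fosl1 lies at -4.79 and -4.50 in NIH3T3 at 25 mM, and Col6a2 lies at -4.06 in K-ras r2 at 1 mM alone.

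Among the genes with the largest positive difference, 5 were high on K-ras r2 of 1 mM and lower on the other 3 arrays of 1 mM. Ampd3, 1 of them, stood at 0.54 on K-ras r1 and 2.77 on K-ras r2. Avil, advillin, an actin-binding protein of sensory neurons, stood at 0.01, 0.31, 0.36 and 4.61 at 1 mM and between -0.58 and 0.25 on the 4 arrays of 25 mM (difference 5.08, SE 0.49, adjusted p = 0.00168). Mamdc2 stood at -0.16, -0.69, -0.41 and 4.60 (difference 3.97, adjusted p = 0.00886), and Csn3, Taf7l and Ampd3 had differences of 3.70, 3.48 and 3.92. Each was also high on the array labelled NIH3T3 at 1 mM and 24 h that has the K-ras profile, with Avil at 4.28 and Mamdc2 at 4.09. Klc1, Slco2a1, Rarg and Ehmt2 were among the 46 genes called between the lines at 1 mM with the labels as given. In the 22-array fit their differences between glucose levels were -3.48, -3.41, -3.23 and -2.71. With the labels as given these were -3.53, -3.04, -3.20 and -2.78 and were not called by limma (adjusted p = 0.151, 0.187, 0.0755 and 0.125). At 25 mM 1 of the 46 was called with the labels as given and 4 in the 22-array fit. Of all genes 0.726% and 8.89% were called there in the same fits.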

How the data were processed

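Total RNA of 28 samples labelled as biological replicates was hybridised to Affymetrix GeneChip mouse arrays. The submitters' processing notes name RMA with no version, and name no genome build. The deposited log2 values were found to be ratios to each probe set's median over the 28 arrays: 2 to the power of the value had a median of 1 within 0.001 in 45101 of 45101 probe sets. No intensities or signal over background were used, and the small number of arrays limits the precision. Of the probe sets, 34945 have 1 gene symbol in the platform annotation, 932 have several, 9160 have none and 64 are controls. The probe set with the largest SD stood for each of 18193 genes.

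One coefficient per group was fitted with limma 3.58.1 in R 4.3.3 on all 28 arrays (14 groups) and again on 22 (13 groups), as lmFit with eBayes, 2-sided, with Benjamini-Hochberg adjustment over all genes. An exact permutation test of 2 arrays against 2 cannot go below p = 0.333, so none is given. The functions were tested on simulated data. Alternatives were a fit of the compared arrays only, quantile normalisation, scaling to one interquartile range, the mean of all probe sets, genes above the median SD, a robust prior, a replicate block, a bioC block and leaving out each replicate. The same set on the 22 arrays was added after the data were seen.

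Genes are named by rule: the 10 largest called differences each way with labels as given, the 15 each way in the 22-array fit, the 8 widest gaps each way, the 6 largest of each sign for the difference between glucose levels, up to 4 called members per list, and genes fixed by name. Further list members named with values were chosen after their values were seen. The members and gene lists were chosen with earlier results of these data known. Promoters came from the RefSeq table of GRCm38.p6. Python 3.11.15 with pandas 2.3.3 and matplotlib 3.10.9 made tables and figures.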

Additional observations from a re-analysis of the deposited data

Results flagged for a closer look

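The difference between the line differences at 1 and 25 mM glucose passed limma with Benjamini-Hochberg adjustment in the 22-array fit for 33 of the named genes, in which K-ras at 1 mM is 1 array, and for 0 of them with the labels as given. The difference was positive, so that K-ras relative to NIH3T3 was higher at 1 mM, for Avil at 5.08, Nudt21 at 4.72, Mamdc2 at 3.97, Ampd3 at 3.92, Csn3 at 3.70 and Taf7l at 3.48, and also for Ero1b at 3.05, Ranbp3l at 2.70 and Pdia4 at 2.34.

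It was negative for the chemokine genes Cxcl5 at -5.41, Cxcl1 at -4.97 and Ccl2 at -4.08, and for the matrix genes Col6a2 at -3.98, Col6a1 at -3.71, Col1a1 at -3.61 and Ltbp2 at -2.53. Cholesterol genes were Pmvk at -3.09, Dhcr7 at -2.71 and Cyp51 at -2.13. Further negative values were those of Tspan11 at -5.12, S1pr3 at -4.01, Fosl1 at -3.62, Vcl at -3.51, Klc1 at -3.48, Slco2a1 at -3.41, Rarg at -3.23, Ehmt2 at -2.71, Crabp1 at -2.63 and Lgals9 at -2.62. The smallest were Sema7a at -2.46, Thy1 at -2.24, Bop1 at -2.00 and Ccnd3 at -1.91.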

How the results depend on the processing

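These are counts of all genes called under each setting, not of genes retained. At 1 mM with the labels as given, 46 genes were called, against 0 in the limma fit of the compared arrays only (972 at an unadjusted p under 0.05), 2 after quantile normalisation, 1 after scaling to one interquartile range, 2 with the mean of probe sets, 4 among genes above the median SD, 1 with the bioC block and 29 with the replicate block. Leaving out each replicate gave 24 to 286. In the 22-array fit 1471 were called, against 0 on the compared arrays only, 828 after quantile normalisation, 879 after interquartile scaling and 46 with all arrays, and 1052 to 1734 when leaving out a replicate. The bioC block gave 1734, the count without NIH3T3 r2.

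For the difference between glucose levels, 0 with the labels as given became 128 in the 22-array fit and 1 with the mean of probe sets, and leaving out a replicate gave 0 to 1590. The 128 became 0 on the compared arrays only (1467 at an unadjusted p under 0.05 by limma) and with all arrays, 41 after quantile normalisation, 16 after interquartile scaling, 52 with the bioC block and 78 with the replicate block, and 42 to 1677 when leaving out a replicate. At 25 mM, 132 genes became 1618 in the 22-array fit, 414 on the compared arrays only, 9 after quantile normalisation (8 higher, 1 lower), 34 after interquartile scaling, 252 with the mean of probe sets, 316 above the median SD, 39 with the replicate block and 1 with the bioC block, and 2 to 3014 when leaving out a replicate, the last without K-ras r2. The causes were not tested.

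Whether replicate numbers pair the arrays is not established: deviations of same-numbered arrays correlated at 0.21 at 1 mM and 0.09 at 25 mM, and the 1 mM count with the replicate block in the 22-array fit was 1272.

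Differences in the 22-array fit that changed sign were not called ones, apart from Wars, a tRNA synthetase (1.06, and -0.47 with all arrays), and the glucose difference of Lgals9 (0.19 with all arrays). Without NIH3T3 r1 or r2 in turn, Ddit3 was at -0.15 and 4.11, Fn1 at -1.28 and 2.77, Lum at 0.032 and -0.12, and Nras at 0.16 and -0.81. With all arrays Fn1 was at -1.26 and Nras at 0.0043. Lum was at 0.013 after quantile normalisation, 0.0034 after interquartile scaling and 0.15 with the replicate block, and Nras at 0.091 with the mean of probe sets.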
